A study of Solanum lycopersicum with 32 samples.

Results

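RNA polymerase II (RNAPII) and acetylation of lysine 27 of histone H3 (H3K27ac) were compared after 6 h of heat in leaves of tomato (*Solanum lycopersicum*) cv. M82, wild type. Growth was at 24 °C in days of 16 h light, and all plants were 4 weeks old. The heated groups were kept at 45 °C for 1 or 6 h, and the 0 h group was not heated. The peak lists used were the 2 RNAPII and the 2 H3K27ac libraries of the 6 h group, 4 of the 30 peak lists of the series, chosen by target and time alone. Each replicate pooled randomly chosen seedlings, as the reporting summary of the study states. Heat and time of day cannot be told apart, since unheated plants stand for 0 h alone. Libraries of the same targets at 0 and 1 h and of H3K4me3, H3K9ac and H3K18ac at 6 h served for comparison.

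RNAPII transcribes protein-coding genes. In plants, as in other eukaryotes, it is found over promoters, gene bodies and the ends of genes that are being transcribed. H3K27ac is laid down by histone acetyltransferases, and it marks nucleosomes at the start of active genes and at distal regulatory elements. H3K9ac and H3K18ac are further acetylations of the same histone tail, and H3K4me3 is a methylation found just downstream of transcription start sites. A site with H3K27ac and no polymerase is therefore acetylated chromatin where no RNAPII was detected in these leaves.

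With a q-value of at most 0.05, the RNAPII lists at 6 h held 69764 and 69255 peaks over 64.3 and 61.4 Mb, and the H3K27ac lists held 110102 and 100371 peaks over 94.8 and 86.3 Mb. The authors called these peaks in each library with MACS2 against 1 input library from unheated leaves, so heat effects on the background and on the targets cannot be told apart. The depth of a library was taken as its lowest background, in fragments over a base, which was recovered from the deposited columns. It was 6.94 and 5.61 in the RNAPII libraries and 11.7 and 6.93 in the H3K27ac libraries. A peak summit was covered by a median of 42 and 35 fragments for RNAPII and of 50 and 33 for H3K27ac. The 2 libraries of a group differed by less than the sampling noise. Their mean chi-square per matched peak at the 3 times was 0.614 to 0.705 for RNAPII and 0.563 to 0.583 for H3K27ac, against 3.29 to 8.86 and 1.03 to 1.64 between libraries of different times. Each pair was therefore counted as 1 sample, no SD is given, and 2 values side by side are the 2 libraries. Intervals and fragment numbers cover counting error only.

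The first question was how often the polymerase and the acetylation lay at the same place after prolonged heat. A site was a stretch under the merged peaks of both libraries of a target that held a peak of each. RNAPII had 54240 sites at 6 h, of which 39089 were overlapped by peaks of both H3K27ac libraries, which is 72.1% (95% Wilson interval 71.7 to 72.4). Another 4190 RNAPII sites (7.72%) met a peak of 1 H3K27ac library, and 10961 (20.2%) met none. H3K27ac had 78487 sites, and 42967 of them were overlapped by peaks of both RNAPII libraries, which is 54.7% (54.4 to 55.1). A further 5122 H3K27ac sites (6.53%) met a peak of 1 RNAPII library and 30398 (38.7%) met none. In these lists the overlap covered most of the RNAPII sites and a smaller share of the acetylated ones, and the H3K27ac lists are longer. With the 60000 peaks of lowest p-value in each list, the shares were 64.3% of RNAPII and 66.8% of H3K27ac sites. The order of these shares was thus not kept. With no RNAPII peak of either library within 1000 bp, 19600 H3K27ac sites (24.97%) are called RNAPII-free below. This number was 31671 without replicate 1 and 34537 without replicate 2, where a site needs a peak of 1 library only, and 9371 with the 60000 peaks of lowest p-value in each list.

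The overlap was smaller by length than by number of sites. Between an RNAPII and an H3K27ac library 32.5 to 36.4 Mb were shared, which is 52.6% to 56.8% of the RNAPII length and 36.8% to 39.2% of the H3K27ac length. The Jaccard index, shared over total covered length, was 0.282 to 0.296 between the targets, against 0.748 between the RNAPII libraries and 0.774 between the H3K27ac libraries. Many overlapping peaks met at a flank and not at the summit. H3K27ac lay over the summit of 43.6% and 43.9% of the RNAPII peaks, with overlap anywhere by both libraries in 65.4% and 65.7%. RNAPII lay over the summit of 29.7% and 31.8% of the H3K27ac peaks, with overlap anywhere in 45.9% and 47.9%. An RNAPII peak of library 1 met 0 H3K27ac peaks in 28.4% of cases, 1 in 54.3%, 2 in 13.02% and 3 or more in 4.28%, and the most was 12.

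Among the marks measured at 6 h, H3K9ac sites held RNAPII most often. Peaks of both RNAPII libraries met 75.3% of the H3K9ac sites, 67.9% of the H3K4me3 sites, 54.7% of the H3K27ac sites and 52.9% of the H3K18ac sites. In the other direction, 60.01% of the RNAPII sites met H3K9ac, 43.2% met H3K4me3, 72.1% met H3K27ac and 81.6% met H3K18ac. The lists differ in length, and with 60000 peaks in each the share of H3K27ac sites with RNAPII was 66.8%. The differences between marks were not tested.

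The shares at 6 h lay below those at 1 h. H3K27ac of both libraries met 64.2% of the RNAPII sites of 0 h, 77.2% of those of 1 h and 72.1% of those of 6 h. In the other direction RNAPII met 55.9% of the H3K27ac sites of 0 h, 64.8% of those of 1 h and 54.7% of those of 6 h. Counted over peaks, the H3K27ac share with RNAPII was 10.9 points lower at 6 h than at 1 h and 1.39 points lower than at 0 h (exact permutation p = 0.333 for each, two-sided, the smallest that 2 against 2 libraries allow). The smaller of these differences turned to 1.45 points higher at 6 h than at 0 h with 60000 peaks in each list, so no direction between 6 h and 0 h is given. RNAPII covered 64.3 and 61.4 Mb at 6 h, against 88.7 and 87.7 Mb at 1 h, and the part of this smaller length in the lower share was not tested. The share of RNAPII peaks with H3K27ac at their summit took another course, with 33.9% and 33.4% of the peaks of 0 h, 38.4% and 38.2% of those of 1 h and 43.6% and 43.9% of those of 6 h.

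**Figure D1:**
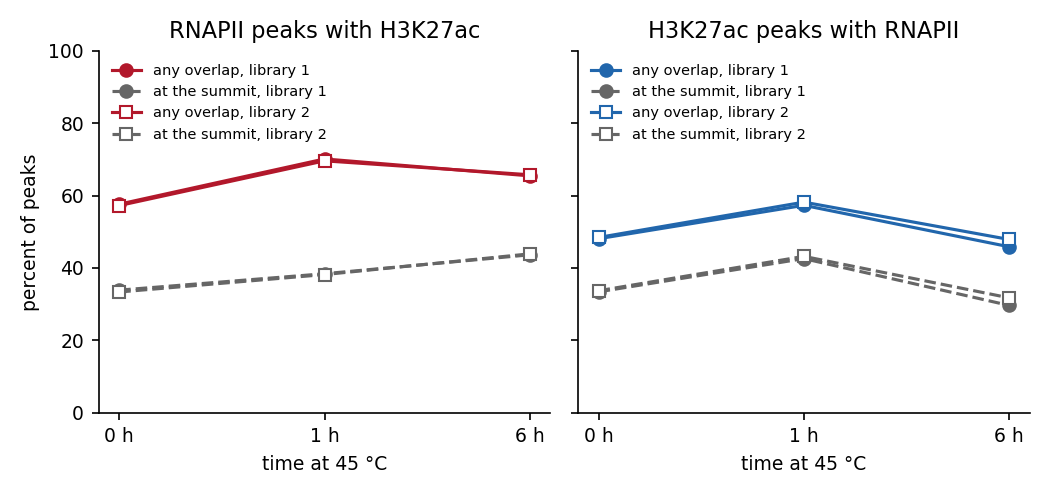
Percent of RNAPII peaks with H3K27ac (left) and of H3K27ac peaks with RNAPII (right) at 0, 1 and 6 h of 45 °C, per library. Solid lines count an overlap of 1 bp with peaks of both partner libraries and dashed lines count a partner peak over the summit. At 6 h any overlap is below its value at 1 h in both panels, while H3K27ac at RNAPII summits is at its highest, 43.6% and 43.9%.

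The H3K27ac peaks that held RNAPII were wider and stronger than those that did not. At 6 h the median width was 924 and 898 bp with RNAPII, against 340 and 354 bp without it. Their median fold enrichment, the authors' ratio of summit pileup to background, was 3.86 and 4.18 with RNAPII and 2.32 and 2.45 without it. As a percentile of fold within its own list, the median peak with RNAPII stood at 71.7 and 70.9 and the median peak without it at 35.8 and 35.4. Over the 6 H3K27ac libraries of the 3 times, peaks with RNAPII were wider by 443.8 bp and higher by 31.97 percentile points on average, in 6 of 6 libraries (exact sign-flip p = 0.031 for each, two-sided, the smallest possible). With each pair counted once there are 3 values, and no p under 0.25 is possible. An overlap anywhere in a peak favours wide peaks, so this p-value for width cannot show a difference beyond that.

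The same contrast was made with RNAPII at the H3K27ac summit, a single base in a peak of any width. Peaks with RNAPII at the summit were wider by 294.2 bp and higher by 24.7 percentile points than those without. Among H3K27ac peaks of 500 to 1000 bp the difference in percentile was 19.8. All these differences had the same direction in 6 of 6 libraries (exact sign-flip p = 0.031). Counted once per pair, 3 values remain and allow no p under 0.25.

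RNAPII was found at nearly all of the strongest acetylated peaks. The H3K27ac peaks of a list were put into 10 equal classes by fold. In the lowest class 24.1% and 26.6% held RNAPII, in class 5 32.3% and 34.7%, in class 8 59.9% and 62.6%, and in the highest class 95.4% and 96.5%. The summit itself lay under RNAPII in 17.1% and 18.6% of the lowest class and in 72.6% and 75.4% of the highest. Most of the increase came above class 6, which had 37.9% and 38.97%. For RNAPII peaks the range was narrower, from 44.8% and 46.4% with H3K27ac in the lowest class to 86.1% in the highest class of both libraries.

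Width gave a similar picture with a different end. Of H3K27ac peaks up to 200 bp wide, 24.5% and 25.9% held RNAPII, and of those over 4000 bp 87.8% and 86.5%. At the summit the share differed less between the wide classes, with 46.1% and 48.3% for peaks of 1000 to 2000 bp, 46.5% and 46.1% for those of 2000 to 4000 bp, and 50% and 48.7% for those over 4000 bp. RNAPII peaks over 4000 bp nearly all met H3K27ac, in 98.6% and 98.5% of cases, against 37.9% and 38.1% of RNAPII peaks up to 200 bp.

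**Figure D2:**
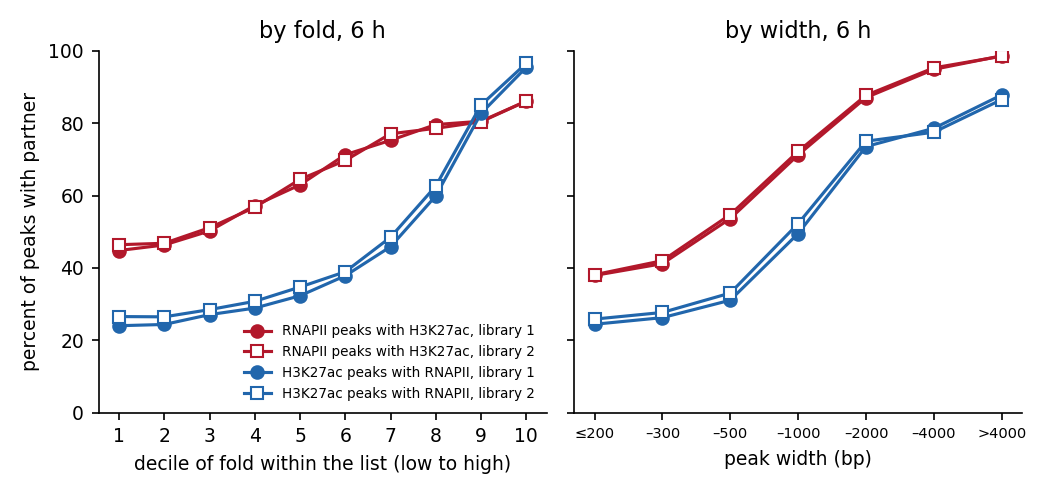
Percent of RNAPII peaks with H3K27ac and of H3K27ac peaks with RNAPII at 6 h, by class of fold within each list, 10 classes from low to high (left) and by peak width in bp (right). Both libraries of a target follow each other closely. The H3K27ac curve by fold runs up to 95.4% and 96.5%, above the RNAPII curve only in the 2 highest classes.

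The acetylated sites with and without polymerase were then compared in width, strength, distance to RNAPII and other marks. Of these, the distance is part of the definition of the classes and is given as a description. The 42967 sites with RNAPII had a median width of 1128 bp, and the 19600 RNAPII-free sites one of 595 bp. Over 4000 bp wide were 2499 of the 42967 sites with RNAPII and 229 of the 19600 RNAPII-free ones, against 2912 of all 78487 H3K27ac sites. The median fold of the sites was 4.52 and 4.64 with RNAPII and 2.64 and 2.66 without. The nearest RNAPII peak of an RNAPII-free site was at a median distance of 4524 bp, and at 32.8% of these sites it was farther than 10000 bp. Most of them were free of weak polymerase peaks as well, since 18767 (95.8%) remained free when all deposited RNAPII peaks were used, including those above the q limit. In the RNAPII lists 1% of the peaks had a fold below 1.81 and 1.87, and a weaker enrichment would not be seen.

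H3K9ac separated the classes most. At the sites with RNAPII, 76.6% and 77.3% had a peak of the H3K9ac libraries, against 25.3% and 27.3% of the RNAPII-free sites. H3K4me3 was found at 52.0% and 54.5% of the sites with RNAPII and at 26.4% and 32.3% of the RNAPII-free sites. H3K18ac was nearly everywhere, at 97.0% and 96.3% of the sites with RNAPII and at 95.7% and 95.4% of the RNAPII-free sites. In these lists RNAPII-free H3K27ac was thus almost always accompanied by H3K18ac and mostly not by H3K9ac. The H3K18ac lists held 112863 and 116126 peaks and the H3K9ac lists 63443 and 63747. The part of list length in this contrast was not tested. The average difference over the 6 libraries of the other marks was 25.2 points, in the same direction in 6 of 6 (exact sign-flip p = 0.031, two-sided). These values come from 3 unlike marks at the same sites, so the p-value measures no spread between samples. With each pair counted once, or with either replicate left out, 3 values remain and p was 0.25 in the exact test, the smallest possible. The call was also lost in 2 settings in which the H3K18ac difference changed sign. Among sites of 500 to 1000 bp the average was 21.6 points (exact sign-flip p = 0.0625), and with 60000 peaks in each list 17.0 points (exact sign-flip p = 0.125).

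At sites of one width class the contrast of H3K9ac stayed as large. The 500 to 1000 bp class held 11150 sites with RNAPII and 6867 RNAPII-free sites. H3K9ac was at 76.3% and 77.1% of the sites with RNAPII and at 26.0% and 28.6% of the RNAPII-free sites. H3K4me3 differed less here, at 40.7% and 42.9% of the sites with RNAPII, against 23.0% and 29.8% of the RNAPII-free sites. H3K18ac was at 96.6% and 95.9% of the sites with RNAPII and at 96.3% and 96.1% of the RNAPII-free sites.

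**Figure D3:**
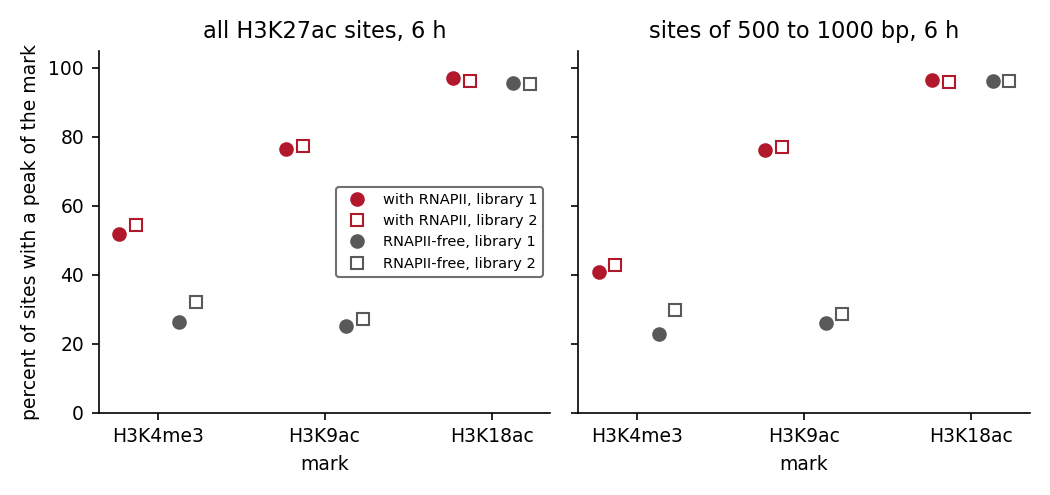
Percent of H3K27ac sites at 6 h with a peak of H3K4me3, H3K9ac or H3K18ac, for sites with RNAPII (red) and RNAPII-free sites (grey), each point being 1 library of the mark. The left panel shows all sites and the right panel sites of 500 to 1000 bp. H3K9ac shows the widest gap, 76.6% and 77.3% against 25.3% and 27.3%, and H3K18ac stays above 95% in both classes.

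The combination of the other marks ranked the H3K27ac sites by their share with polymerase. Where peaks of both libraries of H3K4me3 and of H3K9ac were present (25157 sites), 83.7% held RNAPII and 7.93% were RNAPII-free. With H3K9ac but no H3K4me3 (14585 sites), 65.1% held RNAPII and 9.67% were RNAPII-free. With neither mark (21978 sites), 32.04% held RNAPII and 43.3% were RNAPII-free. With H3K4me3 but no H3K9ac (3922 sites), only 14.7% held RNAPII and 56.9% were RNAPII-free. These last sites were not narrow, as their median width was 1360 bp with RNAPII and 1002 bp when RNAPII-free, against 700 and 631 bp for the sites with H3K9ac alone. At the remaining 12845 sites a mark had a peak in 1 library only.

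Position along the chromosomes differed between the classes too. Of 807 bins of 1 Mb, the 403 with the shortest length under H3K4me3 peaks at 0 h were taken as H3K4me3-poor. In these bins lay 5.76% of the sites with RNAPII and 19.5% of the RNAPII-free sites. Of the 7202 H3K27ac sites in H3K4me3-poor bins 34.4% held RNAPII and 53.1% were RNAPII-free, and of the 71285 other sites 56.8% held RNAPII and 22.1% were RNAPII-free. Median site widths were close, 786 bp in the H3K4me3-poor bins and 845 bp elsewhere. Over the 12 chromosomes the share with RNAPII ran between 50.2% on chromosome 10 and 60.2% on chromosome 2, and the RNAPII-free share between 30.3% and 19.1% on the same chromosomes.

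Single sites show both extremes, with positions as in the files on the M82 version 1 assembly, counted from 1. No gene is given for them, since the annotation at hand belongs to another assembly. The strongest RNAPII-free site was chr9:20666113-20667446, with H3K27ac at a fold of 13.7 and 16.6 and 240 and 181 fragments over the summit. Its nearest RNAPII peak lay 1247248 bp away, and neither RNAPII library met it at 0, 1 or 6 h, although it carried H3K27ac of both libraries at each time. The next were chr1:56032825-56036256 (fold 13.7 and 13.7), chr3:467350-468442 (12.1 and 15.9), chr5:38607015-38609845 (11.9 and 12.9) and chr10:7070826-7072363 (11.9 and 11.8). The sites on chromosomes 1, 3 and 5 had RNAPII in both libraries at 1 h, at a fold of 2.06 to 2.76, and the one on chromosome 5 also at 0 h. All 5 sites had peaks of both libraries of H3K4me3, H3K9ac and H3K18ac at 6 h, which most RNAPII-free sites had not.

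The widest RNAPII-free site, chr5:6019177-6031498, covered 12322 bp with its nearest RNAPII peak 2305 bp away. It was followed by chr3:3784183-3795778 (11596 bp), chr1:90209266-90220720 (11455 bp), chr1:59598422-59607934 (9513 bp) and chr12:56765400-56774752 (9353 bp). All 5 carried H3K27ac at 0 and 1 h and all other marks at 6 h. On the 11455 bp site of chromosome 1, RNAPII had a fold of 5.40 and 4.64 at 1 h. At the other 4 no RNAPII peak was listed at 1 h.

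At the other extreme both targets were among their strongest peaks. In chr6:8449773-8455434 RNAPII reached a fold of 35.7 and 42.3 and H3K27ac 13.6 and 18.3, each over several kb, with 5571 and 5536 bp under RNAPII and 3806 and 3557 bp under H3K27ac. RNAPII was also the longer of the pair in chr12:26085573-26090684, chr3:52049985-52055060 and chr4:65246451-65251030, where it covered 4029 to 5112 bp and H3K27ac 2124 to 2957 bp. In chr1:88458440-88470983 RNAPII covered 10091 and 10389 bp and H3K27ac 10820 and 10562 bp. All 5 regions held both targets and every other mark, in both libraries, and both targets were already present at 0 and 1 h.

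RNAPII without H3K27ac was the rarer case in these lists, of which those of H3K27ac are longer. With equal numbers of peaks in each list this order was not kept. H3K27ac then met 64.3% of the RNAPII sites, and RNAPII met 66.8% of the H3K27ac sites. With q of at most 0.05, 4249 RNAPII sites (7.83%) had no H3K27ac peak of either library within 1000 bp. Of these, 69 lay on the chloroplast sequence, where H3K27ac had no peak. The sites with H3K27ac had a median width of 876 bp and a median fold of 5.03 and 5.02, and the H3K27ac-free sites 548 bp and 2.90 and 2.94. Other marks were mostly missing along with H3K27ac. Peaks of both libraries of H3K18ac were at 96.4% of the sites with H3K27ac and at 17.3% of the H3K27ac-free sites, of H3K9ac at 75.9% and 8.03%, and of H3K4me3 at 58.8% and 1.65%. RNAPII itself had been present at 0 h at 93.4% of the sites with H3K27ac and 68.1% of the H3K27ac-free sites.

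The strongest of the H3K27ac-free RNAPII sites was chr8:55817632-55821230, with RNAPII at a fold of 20.9 and 21.0, and 165 and 138 fragments over the summit. It had RNAPII of both libraries at 0 and 1 h and no H3K27ac at any time. The next, chr2:33688517-33690299, had no RNAPII peak at 0 h, RNAPII at a fold of 34.8 and 37.3 at 1 h, and still 18.6 and 21.0 at 6 h. H3K27ac met it at 1 h, at a fold of 2.99 and 2.80, and was not listed at 0 or 6 h. At chr7:6658474-6659238, chr2:26487587-26488685 and chr6:49552916-49553897 the RNAPII fold at 6 h was between 17.8 and 21.7, and RNAPII was present in both libraries at all 3 times. H3K27ac of 1 library met chr2:26487587-26488685 at 1 h, at a fold of 2.25. For all sites named here, the nearest H3K27ac peak at 6 h lay only 1029 to 2677 bp away.

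Relative widths gave different answers for whole lists and for shared places. The median peak width was 541 and 528 bp for RNAPII and 502 and 521 bp for H3K27ac, a log2 ratio of 0.06 (exact permutation p = 0.333, two-sided, the smallest possible). With peaks of q at most 0.01 the ratio was -0.01 and with 60000 peaks in each list -0.68, so the lists give no firm order of the targets. The H3K27ac lists held more narrow peaks, with a 25th percentile of 345 and 339 bp for RNAPII and of 257 and 274 bp for H3K27ac. The 75th percentile was 970 and 934 bp for RNAPII and 1081 and 1079 bp for H3K27ac. The widest single peaks were those of RNAPII, with 31175 and 27082 bp against 20329 and 12858 bp for H3K27ac. Peaks over 4000 bp made up 2.98% and 2.68% of the RNAPII lists and 2.03% and 1.80% of the H3K27ac lists.

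Where both targets were present, H3K27ac was the longer one more often. A joint region was a merged stretch of the peaks of all 4 libraries that held a peak of each, and there were 32049. RNAPII covered more of it than H3K27ac, with libraries of the targets not overlapping, in 8993 joint regions, which is 28.1% of those compared. H3K27ac covered more in 17409, which is 54.3% of those compared, and in 17.6% the libraries of the targets overlapped. With 1 library per target, where no overlap of libraries can occur, RNAPII was longer in 14591 regions without replicate 1 and 14880 without replicate 2, and H3K27ac in 21888 and 23341. The median covered length was 971 and 927 bp for RNAPII and 1363 and 1267 bp for H3K27ac, and the median log2 ratio was -0.34. In pairs of 1 RNAPII and 1 H3K27ac peak that met no other, RNAPII was the narrower in 61.3% to 65.2%, with medians of 524 to 555 bp for RNAPII and 860 to 888.5 bp for H3K27ac.

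The order depended on the other marks of the region. In the 19801 joint regions with H3K4me3, RNAPII was longer in 21.8% and H3K27ac in 66.0%, with a median log2 ratio of -0.60. In the 11285 without H3K4me3, RNAPII was longer in 39.6% and H3K27ac in 33.2%, with a ratio of 0.07. RNAPII covered a median of 1057 and 1000 bp with H3K4me3 and 858 and 828 bp without it, while H3K27ac covered 1706 and 1616 bp with H3K4me3 and 890 and 753 bp without it. Regions with H3K9ac had RNAPII longer in 25.6% and H3K27ac in 58.7%, against 38.3% and 37.8% without H3K9ac.

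The order also differed between the times. RNAPII was the longer one in 41.0% of the joint regions of 0 h, 44.7% of those of 1 h and 28.1% of those of 6 h. H3K27ac was longer in 43.3%, 37.1% and 54.3% at these times. The log2 ratio of covered length had a median of -0.03 for 0 h, 0.09 for 1 h and -0.34 for 6 h. RNAPII covered a median of 1002.5 and 955 bp at 0 h, of 1437 and 1415 bp at 1 h, and of 971 and 927 bp at 6 h. In the same order of times, H3K27ac covered 1099 and 1058 bp, 1476 and 1377 bp, and 1363 and 1267 bp. RNAPII at 6 h was thus close to its length at 0 h, and H3K27ac was longer than at 0 h. The regions were set at each time separately, and the differences between times were not tested. The RNAPII libraries were shallowest at 6 h, and the part of depth was not tested either.

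**Figure D4:**
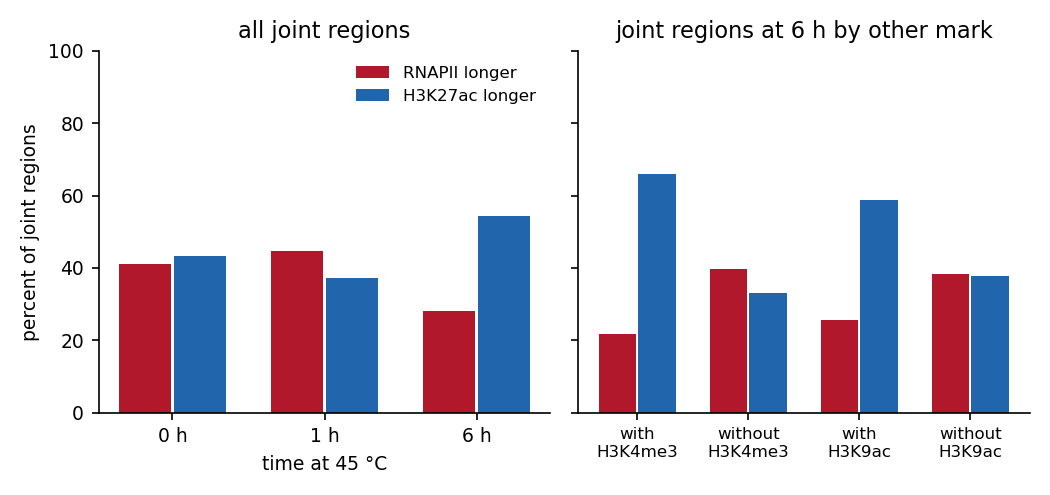
Percent of joint regions in which RNAPII (red) or H3K27ac (blue) covered more bp, with the libraries of the targets not overlapping. The left panel gives 0, 1 and 6 h of 45 °C and the right panel the joint regions at 6 h with and without H3K4me3 or H3K9ac. H3K27ac is the longer one in 54.3% at 6 h, and in 66.0% of the regions with H3K4me3.

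The summits of the polymerase and of the acetylation did not coincide. For overlapping peaks, each with its best partner, the median distance between an RNAPII and an H3K27ac summit was 253 to 254 bp in the 4 pairs of libraries (39535 to 41934 peak pairs). Between the 2 RNAPII libraries it was 35 bp and between the 2 H3K27ac libraries 39 bp, which is the error of a summit position. Only 8.18% to 9.18% of the RNAPII and H3K27ac summits lay within 50 bp of each other, against 62.3% between the RNAPII libraries and 57.6% between the H3K27ac libraries. More than 1000 bp apart were 3.74% to 3.91%. In 12198 regions with a single peak in each of the 4 libraries, the smallest of the 4 distances between targets exceeded both distances within a target in 8713 (71.4%).

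The distance was close to that of the other times, with 269 to 273 bp at 0 h and 282 to 291 bp at 1 h. It was also close to the distance of RNAPII from the other marks at 6 h, which was 285 to 287 bp for H3K4me3, 260 to 268 bp for H3K9ac and 278 to 283 bp for H3K18ac. Between H3K27ac and the other marks the summits lay much nearer, at 41 to 57 bp for H3K4me3, 76 to 80 bp for H3K9ac and 40 to 54 bp for H3K18ac. The authors read each fragment from a single end and extended reads to a fixed length, which limits how finely a summit can be placed.

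**Figure D5:**
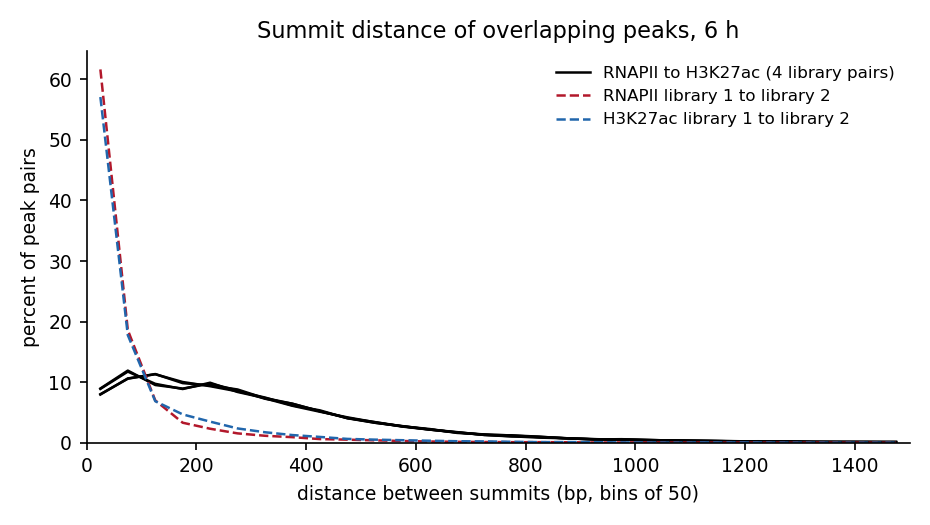
Distribution of the distance between summits of overlapping peaks at 6 h, in bins of 50 bp, as percent of peak pairs. The 4 black lines are RNAPII to H3K27ac and the dashed lines are library 1 to library 2 of one target. Between targets 8.18% to 9.18% lie within 50 bp, against 62.3% and 57.6% between libraries.

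The order of the summits along the DNA was read where RNAPII, H3K27ac and H3K4me3 peaks were best partners of one another (17481 and 18201 trios). RNAPII lay between the other summits in 2.64% and 2.82% of trios, H3K27ac in 62.5% and 57.9% and H3K4me3 in 36.1% and 40.3%, with ties counted for each target. The polymerase summit was thus nearly always at an end. It was 220 and 216 bp from the H3K27ac summit and 259 and 257 bp from the H3K4me3 summit, while the marks were 35 and 41 bp from each other. With H3K9ac as the third target RNAPII was in the middle in 6.68% and 5.90%, and with H3K18ac in 7.20% and 7.45%. At 0 and 1 h the share with H3K4me3 was 2.90% to 3.72%. Summits that lie close together leave little room for one between them, and strand was not used, so upstream and downstream cannot be told apart.

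The largest distances in single-peak regions came to several kb. In chr3:56777316-56785831 an RNAPII peak of 583 and 714 bp lay 4841 to 4984 bp from the summit of an H3K27ac peak of 8516 and 8374 bp. Its libraries put the summit 106 bp apart for RNAPII and 37 bp for H3K27ac. In chr1:2803325-2810573 both peaks were long, 7249 and 7158 bp for RNAPII and 4932 and 4643 bp for H3K27ac, with summits 4724 to 4778 bp apart. In chr9:46303225-46308652 the small peak was that of H3K27ac, with 286 and 218 bp at the side of RNAPII peaks of 5428 and 5169 bp. The RNAPII fold there was 3.10 and 2.69 before heat, 23.0 and 23.3 after 1 h and 20.8 and 20.8 after 6 h.

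Most acetylated sites had held or lacked RNAPII throughout. Of the 78487 H3K27ac sites at 6 h, 39000 (49.7%) had RNAPII in both libraries at 0, 1 and 6 h, and 19246 (24.5%) had none in either library at any time. Sites with RNAPII at 1 h alone numbered 3756 (4.79%), with RNAPII at 0 and 1 h but not at 6 h 1379 (1.76%), at 1 and 6 h but not at 0 h 732, and at 6 h alone 225. At 12674 sites (16.1%) 1 library decided at some time. H3K9ac at 6 h differed between these classes. Peaks of both H3K9ac libraries were at 75.9% of the sites with RNAPII at all times and at 16.1% of those with RNAPII at no time. Where RNAPII was present at 1 h and missing at another time, H3K9ac was at 58.9% (1 and 6 h), 49.7% (0 and 1 h) and 37.9% (1 h alone). Where RNAPII was missing at 1 h, H3K9ac was at 23.9% of the 850 sites with RNAPII at 0 and 6 h and at 26.2% of those with RNAPII at 0 h alone or at 6 h alone. These shares were not tested against each other.

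H3K27ac sites with RNAPII that met only 1 of the targets at 6 h mostly met H3K27ac. Presence was counted here by overlap of at least 1 bp, so RNAPII beside a site was not counted. Sites set by H3K27ac peaks, which RNAPII need only touch, favour meeting H3K27ac at 6 h. The count can therefore not show which target stayed more often, and none starting from RNAPII sites is given. At 6 h the RNAPII libraries were also shallower than at 0 and 1 h, and their peaks covered less. The part of either was not tested. There were 55257 H3K27ac sites with RNAPII at 1 h. At 6 h both targets were present in both libraries at 39214 (71.0%), H3K27ac without RNAPII of either library at 5536 (10.0%), RNAPII without H3K27ac at 1525 (2.76%), and neither at 750 (1.36%). Of the 42022 such sites at 0 h, 36639 (87.2%) held both at 6 h, 2088 (4.97%) H3K27ac alone and 155 (0.369%) RNAPII alone. The remaining sites had 1 library of a target. The sites that kept both from 1 h had a median width of 1214 bp, those that kept H3K27ac alone 701 bp, and those that kept RNAPII alone 350 bp.

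Of the 78487 H3K27ac sites of 6 h, 65.0% had RNAPII of both libraries at 1 h. Among these, 2191 had no RNAPII peak within 1000 bp at 6 h, which is 11.2% of all RNAPII-free sites. These 2191 are called left by RNAPII, although a peak may remain just beyond 1000 bp. Leaving out 1 replicate of each target, which drops the need for both libraries, gave 4942 to 5290. The one with the strongest RNAPII at 1 h was chr3:8195856-8196820. RNAPII had no peak there before heat, a fold of 37.7 and 37.6 after 1 h, and its nearest peak 6733 bp away after 6 h. At the same place the H3K27ac fold was 3.58 and 3.85 before heat, 2.84 and 3.20 after 1 h and 3.28 and 3.01 after 6 h. The next were chr11:2702107-2702564 (RNAPII fold at 1 h 28.1 and 28.9), chr3:65524838-65525815 (22.9 and 23.7), chr9:62642451-62642656 (22.0 and 24.1) and chr9:61146432-61149782 (29.0 and 21.0). None of the 5 had an RNAPII peak at 0 h or at 6 h, and all had H3K27ac in both libraries at the 3 times. After the first site, the nearest RNAPII peak at 6 h was close, 1684, 1214, 1056 and 1481 bp away in this order. H3K18ac was in both libraries at all 5 at 6 h, and H3K9ac in both libraries at none of them.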

How the data were processed

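Per the labels, each target had 2 replicate ChIP-seq libraries of leaves per time point. According to the submitters' processing notes and the methods, the authors trimmed reads with Trimmomatic 0.38, mapped them to the M82 version 1 assembly with Bowtie2 2.3.5 and SAMtools 1.9, and called peaks per library with MACS2 2.2.7.1, without pooling. The deposited lists are narrow peaks that reach a p-value of 0.05. The cutoff in the methods is a q-value of 0.05, for broad peaks. Deposited columns hold the fold enrichment (a ratio of summit pileup to background), the p-value and the q-value as −log10, and the summit position.

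Peaks with q of at most 0.05 were kept here. Summit fragments were solved from the fold and p-value columns. At least 99.99% of peaks with −log10 p under 280 came out whole within 0.02. Replicates were matched by summits within 30 bp with at least 60 fragments together. Tests were exact permutation and sign-flip tests on the labelled libraries. The functions that find overlaps were checked on simulated intervals. Fold was used only as a rank or class within a list, and folds given side by side from different lists are descriptions. Alternatives were other q limits, equal peak numbers, overlap rules, width classes, a replicate block and each replicate left out. The sites named are the 5 highest by rules for strength, width, distance or RNAPII loss, of which the text gives 3 for distance. Members, sites and classes were chosen with earlier results of these data known. H3K27me1 and input were not analysed here, and no gene or sequence was assigned, as no genome of the build used by the files was at hand. Computation used scipy 1.17.1, pandas 2.3.3 and numpy 2.4.6 under Python 3.11.15, with matplotlib 3.10.9 for plots.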

Additional observations from a re-analysis of the deposited data

Results flagged for a closer look

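Several list totals moved in opposite directions for the 2 targets, with both libraries of 6 h outside the range of both libraries of the earlier time. From 0 h, covered length was lower at 6 h for RNAPII (log2 change -0.12) and higher for H3K27ac (0.22). The median peak width was likewise lower for RNAPII (-0.085) and higher for H3K27ac (0.072), as was the share of peaks over 4000 bp (-0.51 for RNAPII and 0.68 for H3K27ac). From 1 h, the median width was lower at 6 h for RNAPII (-0.48) and higher for H3K27ac (0.087), and so was the share over 4000 bp (-0.92 and 0.34). The number of peaks went the other way, slightly higher at 6 h than at 1 h for RNAPII (0.021) and lower for H3K27ac (-0.13). The difference between the targets was not tested in any of these. The lowest background of RNAPII was also lower at 6 h (6.94 and 5.61) than at 0 h (9.53 and 7.98) and 1 h (7.33 and 7.05). The part of depth in these changes was not tested.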

How the results depend on the processing

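The percent of H3K27ac sites with RNAPII was 53.9 with all deposited peaks, 55.8 with q of at most 0.01, 66.8 with 60000 peaks in each list, 26.4 when 50% of the site had to be covered, and, over peaks, 30.7 with RNAPII at the summit. The percent of RNAPII sites with H3K27ac was 64.3 with equal numbers and 47.4 with 50% covered. RNAPII-free sites numbered 9371 with equal numbers, 30398 by overlap alone and 9301 within 5000 bp. The summit distance was 244.2 bp with all peaks, 265.2 bp with q of at most 0.01, 290.5 bp with equal numbers and 228.5 bp for peaks with a single partner. The log2 width ratio reversed to -0.015 with q of at most 0.01 and to -0.68 with equal numbers, and the difference between 6 h and 0 h reversed to 1.45 points with equal numbers. Equal numbers also gave 1435 sites that RNAPII had left after 1 h.

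For the other marks, the difference between sites with RNAPII and RNAPII-free sites was smallest with equal numbers, where it was 14.7 points for H3K4me3, 47.8 for H3K9ac, reversed at -2.12 for H3K18ac, and 17.0 over the 3 marks (exact sign-flip p = 0.125). In sites of 500 to 1000 bp it was 18.5 points for H3K4me3, reversed at -0.28 for H3K18ac, and 21.6 over the 3 marks (exact sign-flip p = 0.0625). It was 52.7 points for H3K9ac with all deposited peaks. With q of at most 0.01 it was 27.3 for H3K4me3, 55.5 for H3K9ac and 0.51 for H3K18ac. In a comparison chosen after seeing the data, with sites free of RNAPII by overlap alone, it was 27.6 points for H3K4me3 and 49.1 for H3K9ac.

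Leaving out replicate 1 or 2 drops the need for a peak in both libraries, and so moves many counts. The range was 50.02% to 50.8% for H3K27ac sites with RNAPII, 67.8% to 71.6% for RNAPII sites with H3K27ac, 31671 to 34537 RNAPII-free sites, 14591 to 14880 joint regions with RNAPII longer, and 4942 to 5290 sites left by RNAPII. It was 405.2 to 411.7 bp for width and 29.6 to 29.9 points for fold percentile with and without RNAPII, and for the difference in the other marks 19.7 to 23.2 points (H3K4me3), 49.1 to 49.8 (H3K9ac), 0.98 to 1.55 (H3K18ac) and 23.4 to 24.6 over the 3 marks, where 3 libraries allow no p under 0.25. In a paired fit with the replicate number as block the log2 width ratio was 0.064 (exact sign-flip p = 0.5, the smallest possible), with 0.11 for replicate 1 and 0.019 for replicate 2. Nothing in the labels ties same-numbered libraries of the targets to the same plants.

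In all, 45 recomputed values stayed the same, 39 moved, 8 kept their direction and missed 0.05, and 5 reversed. The cause of a move was not tested.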
